A study of Mus musculus with 25 samples.

Results

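The comparison described here sets the livers of Western diet-fed wild-type mice that received an AAV8 vector for NAMPT (6 samples, called the NAMPT samples below) against the livers of chow-fed wild-type mice that received an empty AAV8 vector (EV; 3 samples, called the chow samples). These 9 samples were chosen by diet, genotype and vector as the sample titles give them, out of 25 in the series, and each is 1 liver library from 1 mouse. The question was which genes stood away from their chow level after 12 weeks of Western diet (WD) in mice that carried the NAMPT vector. All 9 were C57B/6J mice, aged 20 weeks, and were wild-type (WT) littermates from a SIRT1 liver-knockout cross, so that the floxed Sirt1 gene was left intact for want of an Albumin-driven Cre. The virus went in by tail vein once the mice were adult, at about 8 weeks. Per the methods, expression from the vector was restricted to hepatocytes by its promoter. A treatment note shared by all samples gives SIRT1 as the insert, but NAMPT stands in the titles and in the series text, and the titles were taken as right. Diet and vector both differ between the groups, so their shares in any difference cannot be told apart in this comparison. The 6 WD WT samples with the empty vector (the EV samples) are given beside it for orientation.

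NAMPT is the enzyme that turns nicotinamide into nicotinamide mononucleotide, the limiting step by which most cells recycle NAD. Sirtuins such as SIRT1 consume NAD when they remove acetyl groups from proteins. FGF21 is a hormone that the liver secretes under fasting, protein restriction and lipid load. A Western diet supplies cholesterol, sugar and saturated fat. Sterol that reaches the hepatocyte holds the transcription factor SREBP2 in the endoplasmic reticulum and silences the genes of cholesterol synthesis, whereas oxysterols activate LXR, which drives sterol efflux and Srebf1, and a prolonged load brings macrophages and matrix-producing stellate cells into play.

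Depth was similar throughout, with 20166175 to 32839366 counted reads in each of the 9 samples. Counts were scaled with TMM factors, given below as CPM (reads per scaled library, expressed on a common total), and tested with limma on voom values with a weight for each sample. The weights ran from 0.608 to 2.5 in the chow samples and from 0.336 to 1.85 in the NAMPT samples. NAMPT replicate 6 had the lowest weight and lay at 0.267 on the first principal component (32.6% of the variance), within the chow range of 0.131 to 0.320. The other 5 NAMPT samples lay between -0.496 and -0.045, with NAMPT replicate 2 at the opposite end. EV replicates 6 and 7 also lay in the chow range, at 0.181 and 0.185. On the second component (15.6%) NAMPT replicate 6 lay at -0.037, apart from the chow samples at 0.36 to 0.469. Chow replicate 3 stood apart from chow replicates 1 and 2 for several hepatocyte genes. All libraries were retained, and results that turn on 1 of them are given without it. The labels give no hour of collection, cage or sequencing batch, and beyond the titles nothing was found that ties a library to 1 of these.

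A large share of the liver transcriptome stood away from chow with the NAMPT vector. Of 14065 genes kept, 5663 (40.3%) differed at an adjusted p of 0.05 or less, and they were split almost evenly between 2837 higher (20.2%) and 2826 lower (20.1%). The large changes were less even. Among the 1730 called genes (12.3%) with an absolute log2 fold change over 1, 1232 were higher and 498 lower. The 6 NAMPT values and the 3 chow values did not overlap for 2333 genes (16.6%), of which 2098 were called. The median log2 fold change over all genes was -0.01. With scaling to library size alone, 64.6% of the called genes were higher instead of 50.1%. The count was 2098 without chow replicate 1 and 1655 without chow replicate 2, against 5631 without chow replicate 3 and 5467 without NAMPT replicates 2 and 6. With every library it was 1863 with 2 surrogate variables (unlabelled sources of spread estimated from the counts) in the model, 2174 by the edgeR exact test, 2594 without sample weights, 2989 by edgeR's quasi-likelihood test and 3467 by DESeq2. The large changes numbered 798 and 675 without chow replicate 1 or 2.

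**Figure D1:**
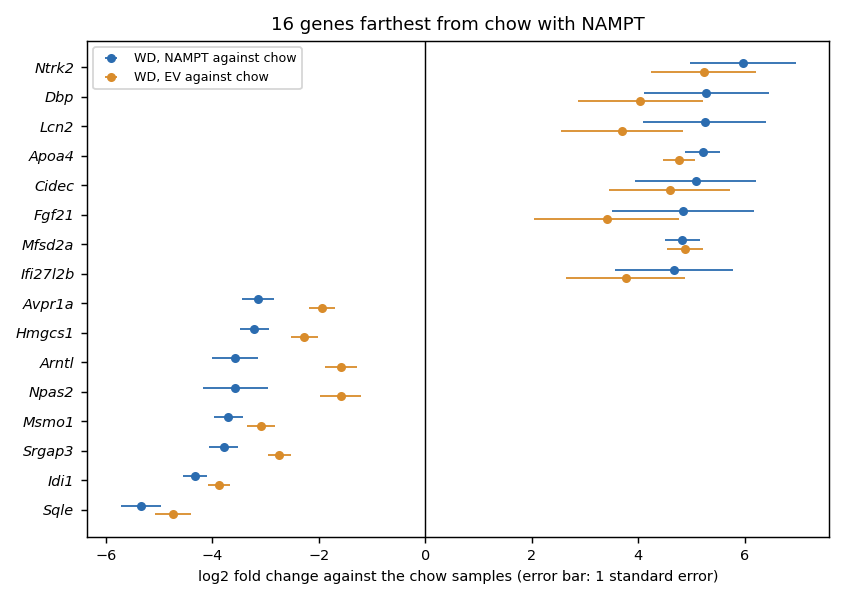
Log2 fold change against chow (horizontal axis, error bars 1 standard error) of the 8 genes with the largest rises and the 8 with the largest falls among called genes that averaged 1 or more on the log2 CPM scale and whose NAMPT and chow values did not overlap, beside the value of the same gene in the EV samples, with both comparisons using the same 3 chow samples. The NAMPT values run from -5.34 for Sqle to 5.97 for Ntrk2.

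Among called genes whose NAMPT and chow values did not overlap and that averaged 1 or more on the log2 CPM scale, the 16 farthest from chow mixed lipid, clock and inflammatory genes. Those that fell were 4 enzymes of cholesterol synthesis (Sqle, Idi1, Msmo1 and Hmgcs1), the clock activators Arntl and Npas2, the vasopressin receptor Avpr1a and Srgap3, a regulator of Rac GTPases. Those that rose were the neurotrophin receptor Ntrk2, the clock output factor Dbp, the iron-siderophore binder Lcn2, the apolipoprotein Apoa4, the lipid droplet protein Cidec, Fgf21, the lysophospholipid carrier Mfsd2a and the interferon-responsive Ifi27l2b. They were picked for size and for groups that do not overlap, so their separation is a description, and genes outside these limits, such as Mup7 and Fam83a below, changed by as much. Apoa4, which rides on triglyceride-rich particles and lies at chromosome 9, 46240696 to 46243459 on GRCm38, read 41.2, 31.7 and 49.3 CPM in the chow samples and from 617 to 1729 with a median of 1406 in the NAMPT samples. Its log2 fold change was 5.21 ± 0.32 (SE; adjusted p = 4e-11), and 632 of its exonic bases overlap a gene model on the other strand. Mfsd2a read 3.51, 4.63 and 13.1 CPM in the chow samples and from 61 to 198 with a median of 146 in the NAMPT samples, a log2 fold change of 4.83 ± 0.33 (adjusted p = 3.3e-10). Ntrk2 was low in chow replicates 1 and 2 and higher in replicate 3, at 0.413, 0.445 and 6.23 CPM, against from 15.8 to 51.9 with a median of 36.6 in the NAMPT samples (log2 fold change 5.97 ± 0.99, adjusted p = 8.9e-05). Apoa4, Mfsd2a, Ntrk2, Avpr1a, Srgap3 and the 4 sterol enzymes kept their call without any 1 library, whereas Dbp and Lcn2 missed it without chow replicate 2 (adjusted p = 0.054 and 0.056), as did Cidec, which also missed it with 2 surrogate variables, and Ifi27l2b missed it without chow replicate 1 or 2 (adjusted p = 0.070 and 0.092).

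The gene carried by the vector was modestly above chow. Nampt (chromosome 12, 32820335 to 32853369) read 45.3, 35.5 and 41.4 CPM in the chow samples and from 46.8 to 77.8 with a median of 58.8 in the NAMPT samples. Every NAMPT sample exceeded every chow sample, and the log2 fold change was 0.61 ± 0.17 (adjusted p = 0.0059), or 0.53 for the plain mean of log2(CPM + 0.5) with an exact permutation p of 0.0119, the smallest that 84 arrangements allow. The counts pool reads from the endogenous gene and any vector transcript that maps to it, and the species and sequence of the insert were not given in the sources used here. The EV samples averaged 47.4 CPM, and NAMPT against EV differed by 0.34 on the log2 scale (adjusted p = 0.14), which did not pass. Sirt1 (chromosome 10, 63319005 to 63381704), the deacetylase gene intact in all these mice, read 10.7, 10 and 9.7 CPM in the chow samples and from 7.62 to 9.32 with a median of 8.73 in the NAMPT samples, a small fall of 0.31 on the log2 scale (SE 0.11, adjusted p = 0.024, exact permutation p = 0.0119). The groups did not overlap, but the limma call was lost without NAMPT replicate 3 or 4 or without chow replicate 1 or 2. It was also lost in 8 of the 14 alternatives, among them edgeR's quasi-likelihood and exact tests, DESeq2 and the fit without sample weights (adjusted p up to 0.62), and the exact permutation test gave an adjusted p of 0.321 with scaling to library size alone. Fgf21 (chromosome 7, 45613907 to 45615490) was nearly silent on chow, at 0.331, 0.356 and 0.158 CPM or 4 to 8 reads a sample, and reached from 1.4 to 26.9 with a median of 9.54 CPM in the NAMPT samples (log2 fold change 4.84 ± 1.33, adjusted p = 0.0058). The lowest NAMPT sample, replicate 6, still lay above all 3 chow samples, while the EV samples averaged 6.08 CPM and did not pass against chow (log2 fold change 3.41, adjusted p = 0.073). The limma call of Fgf21 was lost without chow replicate 1 or 2, and also without sample weights and with 2 surrogate variables. That of Nampt was lost without chow replicate 2, by edgeR's quasi-likelihood test and without sample weights (log2 fold change 0.55 at most, adjusted p from 0.060), and with the clock score described below as a covariate (log2 fold change -0.01, adjusted p = 0.98).

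**Figure D2:**
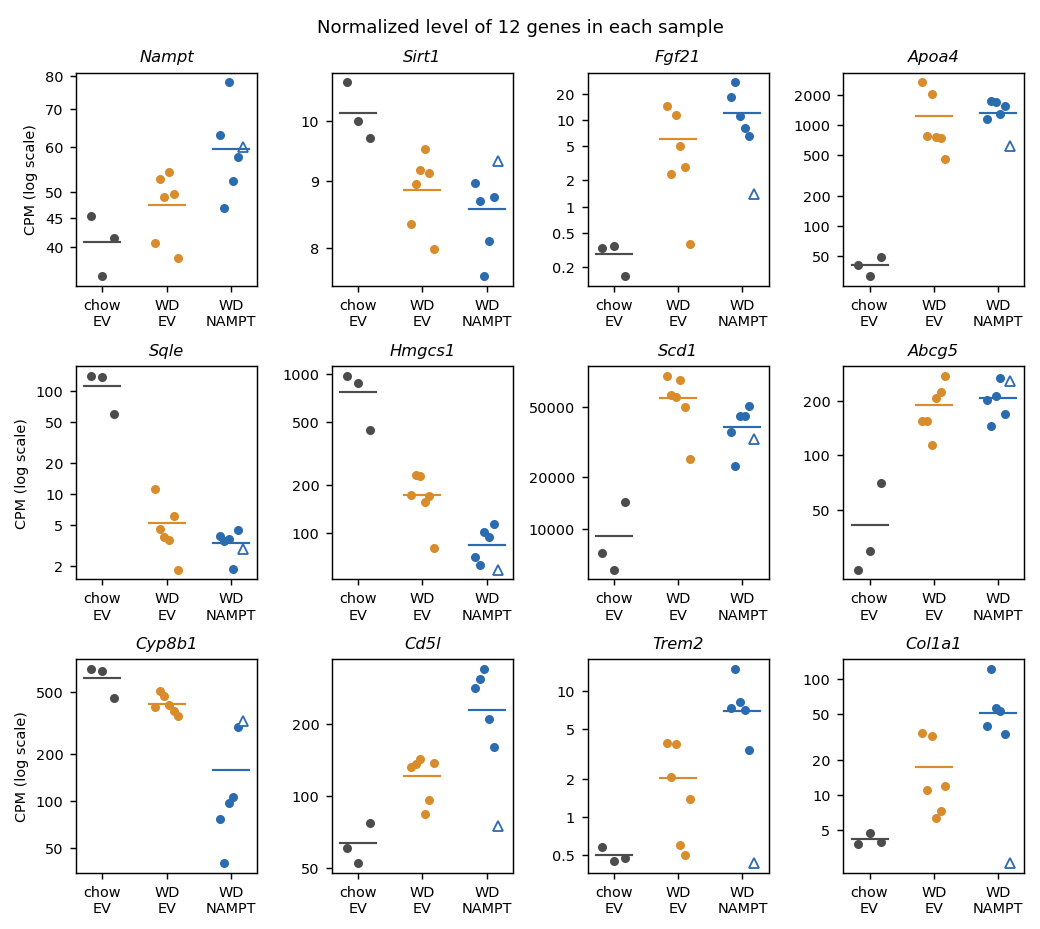
CPM of 12 genes (vertical axes, log scale) in the 3 chow, 6 EV and 6 NAMPT samples, 1 point a sample, with a line at the group mean and an open triangle for NAMPT replicate 6. Sqle and Hmgcs1 lie below every chow value in all 6 NAMPT samples and Apoa4 above, whereas for Trem2 and Col1a1 the triangle lies below the chow points.

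Genes of cholesterol synthesis were lower nearly throughout. Of the 24 members kept, 22 were lower in the NAMPT samples and none was higher. The same 22 did not overlap between the groups, and the median log2 fold change was -2.11. The other members kept did not pass. Over all genes 20.1% were lower, 20.2% higher and 16.6% did not overlap. Sqle, squalene epoxidase (chromosome 15, 59315077 to 59331192), fell from 139.5, 136 and 59 CPM in the chow samples to values from 1.87 to 4.44 with a median of 3.58, a log2 fold change of -5.34 ± 0.38 (adjusted p = 4.8e-10). Idi1, which isomerizes isopentenyl diphosphate, read 118, 109 and 52.9 CPM on chow and from 3.49 to 7.26 with a median of 5.54 in the NAMPT samples (log2 fold change -4.33 ± 0.23, adjusted p = 2.9e-12). Msmo1, the C4-methyl sterol oxidase, read 386, 344 and 135 CPM and then from 13.4 to 31.8 with a median of 27.3 (log2 fold change -3.70 ± 0.27, adjusted p = 5.5e-10). For all 3 genes chow replicate 3 was the lowest chow sample, and it still exceeded the highest NAMPT sample several-fold. Hmgcs1, which makes HMG-CoA in the cytosol, fell by 3.21 (SE 0.27), with an adjusted p of 8.1e-09. The regulator Srebf2 fell by 0.97 and its retention factor Insig1 by 1.31 (adjusted p = 0.00025), a call lost without chow replicate 2. The summed list stood at 6673, 6325 and 4561 CPM in the chow samples and between 1555 and 2516 CPM in the NAMPT samples. In the EV samples, which share the same chow controls, the same number of members, 22, was lower (background 12.0%) with a median of -1.71. NAMPT against EV called 3 of the 24 lower (background 5.77%), among them Hmgcs1 at -0.94 (SE 0.23, adjusted p = 0.014). With any 1 library left out, 20 to 22 members were lower.

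The proximal promoters of these genes were searched for short motifs, which the choice of genes did not use. RefSeq promoter windows (GRCm38.p6, 250 bases before to 50 after the start) were at hand for 16 of the 24. All 16 hold the letters CCAAT on 1 or the other strand, the core bound by NF-Y, against 41.1% of the 27025 genes with a window. The letters were also found in 14 of the 17 core clock genes with a window, so they are not particular to sterol genes. The letters TCACCCCAC, a classical sterol regulatory element, occur in 1 of the 16, Hmgcs1, and in 0.614% of all genes. The motifs were picked after the values were known, and a match describes the letters only. The windows of 3 of the genes that fell farthest follow, 5′ to 3′ on the gene's strand, with CCAAT and its reverse complement in capitals and, in Hmgcs1, also the sterol element. They lie at chr13:119690101-119690400 (plus strand) for Hmgcs1, chr13:8885356-8885655 (plus strand) for Idi1 and chr8:64733529-64733828 (minus strand) for Msmo1.
Hmgcs1: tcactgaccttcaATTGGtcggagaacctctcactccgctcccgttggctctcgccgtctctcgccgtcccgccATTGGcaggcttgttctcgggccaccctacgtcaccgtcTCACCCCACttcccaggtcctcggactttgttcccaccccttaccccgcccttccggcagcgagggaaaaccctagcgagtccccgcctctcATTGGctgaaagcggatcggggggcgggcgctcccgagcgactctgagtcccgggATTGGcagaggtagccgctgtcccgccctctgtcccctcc
Idi1: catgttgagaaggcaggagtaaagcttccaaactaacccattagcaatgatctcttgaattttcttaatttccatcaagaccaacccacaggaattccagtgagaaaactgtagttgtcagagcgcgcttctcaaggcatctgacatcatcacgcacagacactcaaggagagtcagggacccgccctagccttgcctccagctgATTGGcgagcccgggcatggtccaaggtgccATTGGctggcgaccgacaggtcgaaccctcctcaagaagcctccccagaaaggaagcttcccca
Msmo1: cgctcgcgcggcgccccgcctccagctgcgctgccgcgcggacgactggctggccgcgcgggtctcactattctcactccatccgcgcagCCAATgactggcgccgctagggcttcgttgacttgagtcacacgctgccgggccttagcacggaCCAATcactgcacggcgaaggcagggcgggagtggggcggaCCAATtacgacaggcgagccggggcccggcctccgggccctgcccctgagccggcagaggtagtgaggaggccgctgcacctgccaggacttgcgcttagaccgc
Hmgcs1 holds 4 CCAAT matches and 1 sterol element, Idi1 holds 2 CCAAT matches and Msmo1 holds 3.

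About as many genes of lipid synthesis and storage were higher as were not called, and most of sterol export were higher. Of 18 fatty acid synthesis genes, 9 were higher, 1 lower and 8 not called, with a median of 0.72. Over all genes 20.2% were higher and 20.1% lower. Scd1, the desaturase that makes oleate, read 7334, 5881 and 14388 CPM on chow and from 22939 to 50740.5 with a median of 40275 in the NAMPT samples. Its log2 fold change was 2.56 ± 0.22 (adjusted p = 1.7e-08), and the lowest NAMPT sample lay above the highest chow sample. Srebf1, the master regulator of lipogenesis, read 283, 274 and 194 CPM and then from 527 to 1202 with a median of 965 (log2 fold change 1.84 ± 0.20, adjusted p = 4.7e-07). The member that fell was Acss2, which makes acetyl-CoA from acetate and is a known SREBP target, by 1.83 (SE 0.27, adjusted p = 3.2e-05). Fasn, fatty acid synthase, stood at 0.73 ± 0.34 and did not pass (adjusted p = 0.093), but it was called without NAMPT replicate 1 or 2, with library-size scaling and with the replicate block. In the EV samples 12 of the 18 were higher (background 10.1%) with a median of 1.29, and NAMPT against EV called 2 lower (background 5.77%). The higher members numbered 6 without chow replicate 2 and 4 with 2 surrogate variables, and Pnpla3, with only 3 reads in chow replicate 2, missed the call without chow replicate 1 or 2.

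Of 21 lipid droplet and lipolysis genes, 11 were higher and none lower (median 0.62), beside 20.2% and 20.1% of all genes. Cidec, which fuses lipid droplets, read 2.61, 1.6 and 2.13 CPM on chow and from 11.5 to 104 with a median of 66.1 in the NAMPT samples (log2 fold change 5.08 ± 1.14, adjusted p = 0.0013). Cd36, a fatty acid carrier, read 23.4, 27.3 and 49 CPM and then from 78.9 to 176 with a median of 145 (log2 fold change 2.40 ± 0.30, adjusted p = 3.4e-06). Both genes were above chow in every NAMPT sample and lowest in replicate 6. With EV, 14 of the 21 were higher (median 0.84), beside 10.1% of all genes, and NAMPT against EV called 5 lower, beside 5.77%. The count of 11 was 7 without chow replicate 1 and 5 without chow replicate 2.

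Of 12 sterol efflux and LXR target genes, 10 were higher and none lower (median 0.67), beside 20.2% and 20.1% of all genes. The higher members numbered 7 to 11 across the fits without 1 library. Abcg5 and Abcg8 form the transporter that moves sterol into bile. Abcg5 read 23.2, 29.4 and 70.7 CPM on chow and from 145 to 269 with a median of 209 in the NAMPT samples (log2 fold change 2.86 ± 0.24, adjusted p = 8.1e-09), and Abcg8, which shares 82 exonic bases with it on the other strand, stood at 2.31 ± 0.26 (adjusted p = 7.8e-07). Lpl, lipoprotein lipase, stood at 2.14 ± 0.34 (adjusted p = 5.5e-05), not called with 2 surrogate variables (0.75, adjusted p = 0.063), with 1 NAMPT sample, replicate 6 at 35.1 CPM, inside the chow range of 20.3, 21.7 and 41. NAMPT against EV also called Lpl higher (background 7.67%), at 1.44 (SE 0.30, adjusted p = 0.0092).

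**Figure D3:**
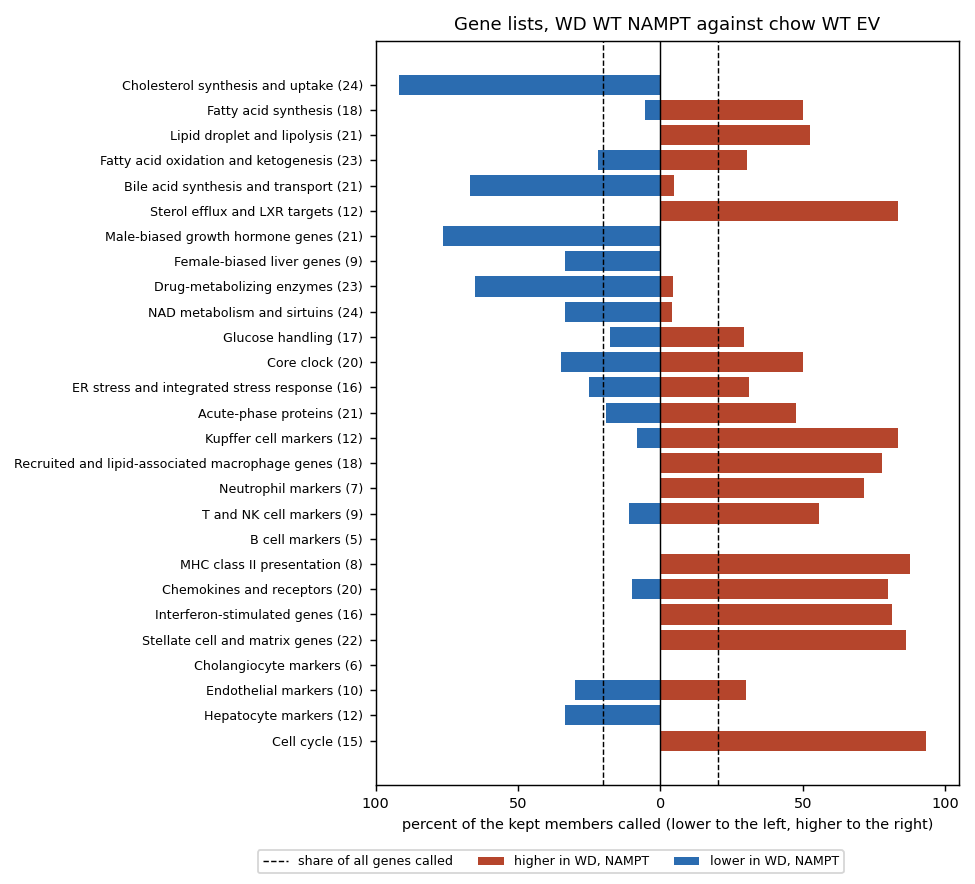
Percent of the kept members of each of 27 gene lists called lower (bars to the left) or higher (bars to the right) in the NAMPT samples against chow, with the number of members kept in brackets and dashed lines at the shares of all genes called, 20.1% lower and 20.2% higher. Cholesterol synthesis reaches farthest to the left with 22 of 24 members, and cell cycle farthest to the right with 14 of 15.

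Fatty acid oxidation genes were called in both directions, while bile acid and drug-metabolizing genes stood below chow. Of 23 oxidation and ketogenesis genes, 7 were higher and 5 lower (median -0.04), beside 20.2% and 20.1% of all genes. Pdk4, the kinase that blocks pyruvate entry, read 46.9, 29.6 and 20.6 CPM on chow and from 3.07 to 16.1 with a median of 10.8 in the NAMPT samples (log2 fold change -1.53 ± 0.36, adjusted p = 0.0018), with every NAMPT sample below every chow sample. Vnn1, a PPARα target, rose by 1.90 (SE 0.49, adjusted p = 0.0038) and Cpt1a, the carnitine transferase that admits fatty acids to mitochondria, by 0.95 (SE 0.13, adjusted p = 9.2e-06). In the EV samples 10 of the 23 were higher and 1 lower (median 0.64), and NAMPT against EV called 10 lower and none higher (median -0.40). The calls of Vnn1 and Pdk4 were lost without chow replicate 1 or 2 (adjusted p from 0.055), that of Vnn1 also without sample weights and those of Pdk4 and Cpt1a with the clock score as a covariate. The list had, without chow replicate 1 or 2, 3 higher members and 2 or 3 lower ones.

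Of 21 bile acid genes, 14 were lower and 1 higher (median -0.64), beside 20.1% and 20.2% of all genes, against 2 and 2 in the EV samples, beside 12.0% and 10.1%. NAMPT against EV called 8 lower and 1 higher. Cyp8b1, which sets the cholic acid share of bile, read 703, 685 and 457 CPM on chow and from 39.9 to 328 with a median of 102 in the NAMPT samples. It fell by 2.46 (SE 0.31, adjusted p = 4.9e-06) without overlap, and NAMPT against EV gave -1.85 (SE 0.28, adjusted p = 0.0032). Cyp7a1, which opens the classic route from cholesterol, stood at -1.42 ± 0.51 (adjusted p = 0.028), and Cyp7b1 of the alternative route at -2.71 ± 0.53 (adjusted p = 0.00042). Cyp7b1 overlapped, with 355 CPM in NAMPT replicate 6 and 143 in chow replicate 3. The call of Cyp7a1 was lost by both edgeR tests and DESeq2, without sample weights, with 2 surrogate variables, and without chow replicate 1 or 2 or NAMPT replicate 2 or 3. The member that rose was Abcb4, the phospholipid flippase of the canaliculus, at 0.54 ± 0.10. The count of 14 was 6 without chow replicate 1, 3 without chow replicate 2 and 4 with 2 surrogate variables, and the call of Cyp7b1 was lost without chow replicate 2, by edgeR's quasi-likelihood and exact tests, by DESeq2, without sample weights and with 2 surrogate variables (log2 fold change -0.34, adjusted p = 0.62), while Cyp8b1 was called in every fit.

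Of 23 drug-metabolizing enzyme genes, 15 were lower and 1 higher (median -0.78), beside 20.1% and 20.2% of all genes. Cyp2b10, a cytochrome induced through CAR, read 11.5, 16.4 and 13 CPM on chow and from 0.637 to 1.34 with a median of 0.925 in the NAMPT samples (log2 fold change -3.76 ± 0.44, adjusted p = 1.6e-06), without overlap. Cyp2c54 stood at -3.38 ± 0.65 and Cyp2c37 at -2.24 ± 0.46, and both overlapped, with replicate 6 the highest NAMPT sample. These 2 belong to a family of near-identical genes among which reads can be split. With EV, 10 of the 23 were lower, beside 12.0% of all genes, and NAMPT against EV called 7 lower, beside 5.77%. Without chow replicate 2 the call of Cyp2c54 and without chow replicate 1 or 2 that of Cyp2c37 was lost, both also by edgeR's quasi-likelihood and exact tests and with 2 surrogate variables, and the lower members numbered 9 to 16 across the fits without 1 library.

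Most male-biased growth hormone targets were called lower, but they scattered widely among samples and the count depended on the fit. Of 21 members, 16 were lower and none higher (median -1.10), beside 20.1% and 20.2% of all genes. In the EV samples 6 were lower (median -0.63), beside 12.0% of all genes. NAMPT against EV called 2 lower and 1 higher. Mup7, a major urinary protein, read 1809, 1471 and 23 CPM in the chow samples, and from 3.86 to 3892 with a median of 115 in the NAMPT samples (log2 fold change -5.32 ± 1.57, adjusted p = 0.0096). The low chow value is that of replicate 3 and the high NAMPT value that of replicate 6, so that the groups overlapped fully. Mup genes are near-identical copies whose reads are hard to assign. Elovl3, an elongase with a strong male and daily rhythm, fell by 3.14 (SE 0.48, adjusted p = 3.8e-05) without overlap, and Stat5b, the transducer of the growth hormone signal, by 0.56 (SE 0.09, adjusted p = 3.8e-05). The count of 16 was 2 without chow replicate 1, 2 without chow replicate 2, 10 without NAMPT replicate 3 and 2 by edgeR's quasi-likelihood test. With 2 surrogate variables 3 members were higher and 2 lower. The summed list stood at 21505 to 33143 CPM on chow and at 8465 to 16985 CPM in 5 NAMPT samples, and at 38725 CPM in replicate 6, above every chow sample. In the EV samples it ran from 6292 to 23842 CPM. The call of Mup7 was lost without chow replicate 1 or 2, by both edgeR tests, by DESeq2 and without sample weights or a filter on low counts, and its sign turned with 2 surrogate variables (1.54, adjusted p = 0.44). Of the 13 female-biased genes, 9 were kept, none was higher and 3 were lower, although the median was positive (0.63). The lower ones were led by Cyp3a44, from 16.7, 20 and 18.1 CPM to values from 2.14 to 7.06 with a median of 4.18 (log2 fold change -2.02 ± 0.22, adjusted p = 4.9e-07). Sult2a1, Sult3a1 and A1bg were among those too low to be kept.

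NAD genes were called no more often than other genes. Of 24 kept, 1 was higher, Nampt itself, and 8 were lower (median -0.10), or 9 called beside 40.3% of all genes. Afmid and Kynu, which act in the route from tryptophan to NAD, fell by 1.22 (SE 0.23, adjusted p = 0.00031) and 0.64 (SE 0.11, adjusted p = 0.00013), without overlap. With 2 surrogate variables Afmid was not called (-0.58, adjusted p = 0.096). Afmid shares 1649 of its 3539 exonic bases with neighbouring genes. Among the sirtuins, Sirt1 and Sirt7 passed, the latter at -0.35 ± 0.13 (adjusted p = 0.029), a call that both edgeR tests, DESeq2 and the fits without chow replicate 1 or 2 or without NAMPT replicate 1, 2 or 3 did not make. Nmrk1, the nicotinamide riboside kinase, stood at 0.55 ± 0.25 and did not pass (adjusted p = 0.079), but it was called by the edgeR exact test, by DESeq2, with library-size scaling, with only the 2 groups in the fit and with 2 surrogate variables. The 8 lower members were 3 without chow replicate 1 or 2, 4 without NAMPT replicate 3 and 3 by edgeR's quasi-likelihood test. Of 17 glucose genes, 5 were higher and 3 lower (median 0.10), close to the 20.2% and 20.1% of all genes. Pfkfb3, which makes the activator of phosphofructokinase, read 6.24, 5.39 and 5.4 CPM and then from 13.3 to 24.6 with a median of 19.4 (log2 fold change 1.65 ± 0.23, adjusted p = 1.6e-05), and the insulin receptor substrate Irs2 fell by 0.97 (SE 0.20, adjusted p = 0.00054) but was not called with 2 surrogate variables (-0.71, adjusted p = 0.063). The 5 higher members were 2 without chow replicate 1, 3 without chow replicate 2 and 1 by edgeR's quasi-likelihood test.

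Clock genes stood at different levels in the NAMPT and the chow livers. The core clock runs as a loop in which ARNTL with CLOCK or NPAS2 activates Per, Cry, Nr1d1 and Dbp, whose products feed back, so that activators and targets peak at different hours. Of 20 members, 10 were higher, 7 lower and 3 not called, and 14 did not overlap. Over all genes 20.2% were higher, 20.1% lower and 16.6% did not overlap. Arntl read 37.4, 37.4 and 27.6 CPM on chow and from 1.56 to 7.12 with a median of 3.19 in the NAMPT samples (log2 fold change -3.57 ± 0.43, adjusted p = 2.5e-06). Npas2 read 16.1, 15 and 7.73 CPM and then from 0.802 to 2.22 with a median of 1.18 (log2 fold change -3.57 ± 0.61, adjusted p = 0.00012). Dbp, whose exons share 491 bases with Sphk2 on the other strand, went the other way, from 0.62, 1.25 and 5.13 CPM to values from 24.8 to 63.9 with a median of 48.8 (log2 fold change 5.28 ± 1.17, adjusted p = 0.0012). Per1 stood at 1.61 ± 0.37, Per3 at 2.72 ± 0.76 and Nr1d1 at 1.17 ± 0.29, all called, while Ciart at 3.36 ± 1.39 did not pass (adjusted p = 0.056) but was called by both edgeR tests and DESeq2. The calls of Per3 and Nr1d1 were lost without chow replicate 1 or 2 and without sample weights, and that of Nr1d1 also by both edgeR tests and DESeq2. The EV samples lay in between for Arntl, at a log2 fold change of -1.58 against chow, and NAMPT against EV gave -1.99 (SE 0.44, adjusted p = 0.012). A clock score built from Dbp, Per3 and Tef minus Arntl, Npas2 and Clock ran from -2.07 to -1.34 in the chow samples and from -0.045 to 1.12 in the NAMPT samples. With that score as a covariate, chosen after the values were seen, 3727 genes were called in place of 5663, and 1 clock gene was higher instead of 10. Since the score is built from 6 members of the clock list and its values do not overlap between the groups, fewer clock calls follow from its construction. The hour of collection was not given in the sources used here, and its part in these results was not tested. Without chow replicate 1, 5 clock genes were higher and 4 lower, and without chow replicate 2, 5 and 5.

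**Figure D4:**
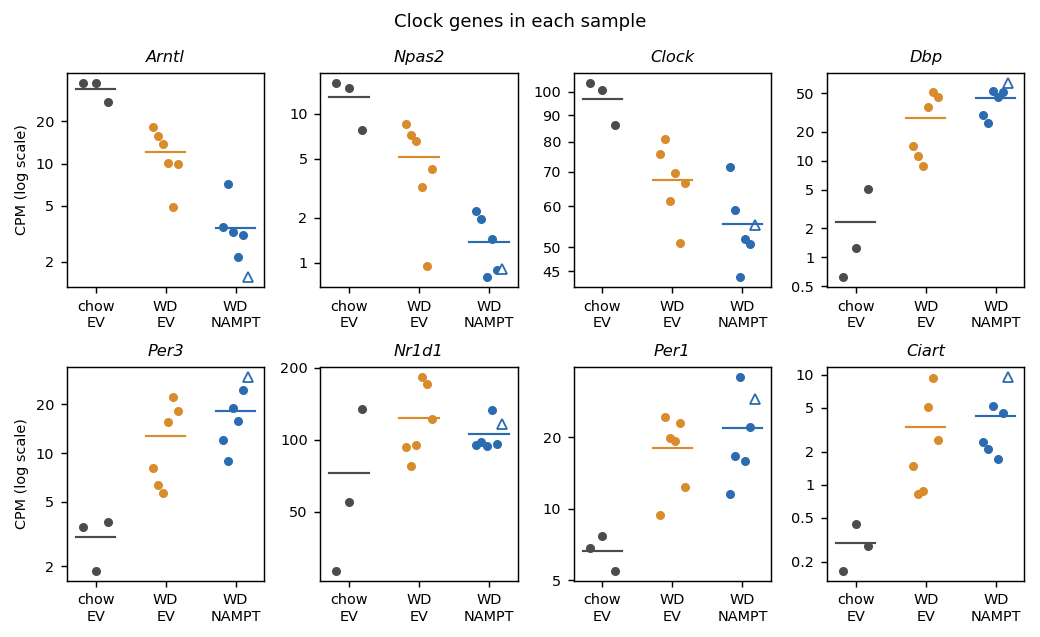
CPM of 8 clock genes (vertical axes, log scale) in each chow, EV and NAMPT sample, with a line at the group mean and an open triangle for NAMPT replicate 6. Arntl, Npas2 and Clock lie highest on chow and Dbp, Per3, Per1 and Ciart lowest, while Nr1d1 overlaps because chow replicate 3 reads 134 CPM.

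Promoter windows were at hand for 17 of the 20 clock genes. The E-box CACGTG, the letters bound by ARNTL and its partners, was found in 5 of them (Cry1, Per1, Tef, Ciart and Bhlhe41), against 8.09% of all genes with a window and 4 of the 16 cholesterol genes. The half-site AGGTCA, part of the element bound by ROR and NR1D1, was found in 5 (Arntl, Clock, Per1, Nr1d2 and Nfil3), against 18.1% of all genes and 3 of the 16. The windows of Per1, which rose, of Ciart, whose NAMPT values all lay above chow without passing the test, and of Arntl, which fell, are shown with the E-box (Per1 and Ciart) or the half-site on either strand (Arntl) in capitals. They lie at chr11:69098699-69098998 (plus strand) for Per1, chr3:95882179-95882478 (minus strand) for Ciart and chr7:113207261-113207560 (plus strand) for Arntl.
Per1: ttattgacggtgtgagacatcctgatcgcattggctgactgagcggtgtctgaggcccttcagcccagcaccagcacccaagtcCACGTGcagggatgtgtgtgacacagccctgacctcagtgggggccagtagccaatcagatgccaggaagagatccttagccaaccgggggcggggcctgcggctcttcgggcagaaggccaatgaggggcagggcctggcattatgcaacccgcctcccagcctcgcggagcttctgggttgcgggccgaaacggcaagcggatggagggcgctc
Ciart: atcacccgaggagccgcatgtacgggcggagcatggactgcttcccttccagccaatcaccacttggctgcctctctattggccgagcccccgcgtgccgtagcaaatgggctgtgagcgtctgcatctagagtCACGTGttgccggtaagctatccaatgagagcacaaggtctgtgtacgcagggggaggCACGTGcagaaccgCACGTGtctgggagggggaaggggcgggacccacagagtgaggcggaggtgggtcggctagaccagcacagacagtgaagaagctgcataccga
Arntl: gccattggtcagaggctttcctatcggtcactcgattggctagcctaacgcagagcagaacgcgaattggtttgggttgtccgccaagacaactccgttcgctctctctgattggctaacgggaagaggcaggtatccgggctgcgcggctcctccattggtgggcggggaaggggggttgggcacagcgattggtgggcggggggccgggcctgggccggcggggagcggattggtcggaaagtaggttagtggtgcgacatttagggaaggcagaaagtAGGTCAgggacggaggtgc
Per1 holds 1 E-box, Ciart holds 3 and Arntl holds 1 half-site.

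Macrophage genes stood above chow in 5 of the 6 NAMPT samples. Bulk RNA cannot tell more cells of a type from more RNA per cell. Of 12 Kupffer cell markers, 10 were higher and 1 lower (median 1.03). Of 18 genes of recruited and lipid-associated macrophages, 14 were higher and none lower (median 2.25). Over all genes 20.2% were higher and 20.1% lower. With EV, 4 and 7 of these list members were higher, beside 10.1% of all genes. NAMPT against EV called 7 and 10 higher, beside 7.67%. Cd5l, secreted by Kupffer cells, read 60.7, 52.4 and 76.7 CPM on chow and from 74.5 to 339 with a median of 247 in the NAMPT samples (log2 fold change 1.97 ± 0.24, adjusted p = 2.4e-06). Trem2, the lipid receptor of scar- and fat-associated macrophages, read 0.579, 0.445 and 0.473 CPM on chow and from 0.431 to 14.8 with a median of 7.16 in the NAMPT samples (log2 fold change 3.61 ± 0.91, adjusted p = 0.0033). The lowest values were those of NAMPT replicate 6, which lay inside the chow range for Cd5l and below it for Trem2. Itgax stood at 3.68 ± 0.93 and Cx3cr1 at 3.52 ± 0.83. The Kupffer marker that fell was Cd163, a hemoglobin scavenger, at -1.32 ± 0.46 (adjusted p = 0.025), without overlap, a call lost by both edgeR tests and DESeq2, without sample weights, with 2 surrogate variables, without chow replicate 1 or 2 and without NAMPT replicate 1, 2 or 3. Clec4f, the marker most restricted to Kupffer cells, rose by 0.57 (SE 0.13, adjusted p = 0.002), a call lost without chow replicate 1 or 2.

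The summed recruited macrophage list ran from 367 to 480.2 CPM in the chow samples, and from 724 to 1488 CPM in 5 NAMPT samples against 429 CPM in replicate 6. The summed Kupffer list was 374 to 462 CPM on chow and 427 CPM in replicate 6. Without chow replicate 1 the 10 and 14 higher members were 7 and 7, without chow replicate 2 they were 6 and 7, without NAMPT replicates 2 and 6 they were 10 and 16, and with 2 surrogate variables 4 and 3. Trem2, Itgax and Cx3cr1 missed the call without chow replicate 1 or 2 (adjusted p = 0.061 to 0.10), without sample weights or with 2 surrogate variables, and Cd5l was called in every fit.

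Antigen presentation, chemokine and interferon genes were called above chow in most members, though not every NAMPT sample stood above chow. Of 8 MHC class II genes 7 were higher (median 1.61) and of 20 chemokines and receptors 16 were higher and 2 lower (median 2.30). Of 16 interferon-stimulated genes 13 were higher (median 1.30), beside 20.2% higher and 20.1% lower over all genes. In the EV samples the higher members numbered 4, 4 and 1, beside 10.1% of all genes. NAMPT against EV called 1, 6 and 7 higher, beside 7.67%. The single members, of the interferon list with EV and of MHC class II between the vectors, lay near those shares. H2-Ab1 read 28.1, 23.4 and 50.9 CPM on chow and from 18.8 to 198 with a median of 90.1 in the NAMPT samples (log2 fold change 1.77 ± 0.35, adjusted p = 0.00048). Cxcl10, which draws T cells, stood at 2.60 ± 0.57, the monocyte chemokine Ccl2 at 3.25 ± 1.04, and Cxcr4 at 2.70 ± 0.63. Ccl2 overlapped, since replicate 6 read 0.0539 CPM, or 1 read, and the chow samples 0.413, 0.712 and 0.868. The chemokines that fell were Cxcl13 at -1.76 ± 0.32 and Cxcl12 at -0.50 ± 0.13. Cxcl13 was not called lower with the clock score as a covariate, nor Cxcl12 with 2 surrogate variables. Oas1a, a sensor of double-stranded RNA, stood at 2.57 ± 0.52 and the guanylate-binding protein genes Gbp2 and Gbp3 at 2.48 ± 0.50 and 1.80 ± 0.38, all members of families of near-identical genes. Without chow replicate 1 the higher members of the 3 lists numbered 4, 7 and 5, without chow replicate 2 they numbered 2, 5 and 3, and with 2 surrogate variables 0, 1 and 0. Without NAMPT replicate 3, 8 interferon-stimulated genes were higher. The summed MHC class II list in NAMPT replicate 6 (105.3 CPM) lay below every chow sample (136.5 to 260.1 CPM). Summed chemokines in NAMPT replicates 5 and 6 (323.6 and 339.3 CPM) lay below the chow range of 364.4 to 448.6 CPM, and only replicates 1 and 2 lay above it. Summed interferon genes in replicates 5 and 6 (154.7 and 144.5 CPM) lay inside the chow range of 135.5 to 160.4 CPM. The calls of H2-Ab1, Cxcl10 and Gbp2 were lost without chow replicate 2 and those of Ccl2 and Cxcr4 without chow replicate 1 or 2, and with 2 surrogate variables none of these 5, Oas1a or Gbp3 was called.

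Acute-phase genes were higher more often than lower. Of 21, 10 were higher and 4 lower (median 0.26), beside 20.2% and 20.1% of all genes, and NAMPT against EV called 6 higher. Lcn2, which starves bacteria of iron, read 1.82, 2.85 and 4.34 CPM on chow and from 4.85 to 339.5 with a median of 125 in the NAMPT samples (log2 fold change 5.25 ± 1.15, adjusted p = 0.0011). Saa2 and Saa1, near-identical serum amyloid genes, stood at 4.14 ± 0.73 and 3.17 ± 0.48, with replicate 6 inside the chow range for both. With 2 surrogate variables neither was called (1.42 and 0.94, adjusted p = 0.052 and 0.084). The members that fell were Crp, Itih3 and the fibrinogen chains Fga and Fgg, by 0.36 to 0.49 on the log2 scale, and without chow replicate 2 none of them was called, whereas the higher members numbered 6. Of 16 stress response genes, 5 were higher and 4 lower (median -0.14), beside 20.2% and 20.1% of all genes. Atf3, induced by many stresses, stood at 2.77 ± 0.78 and Chac1, a target of ATF4, at 2.55 ± 0.66, and each missed the call without chow replicate 1 or 2, when 1 stress gene was higher and 1 lower, and with 2 surrogate variables (0.30 with an adjusted p of 0.72, and 1.64 with 0.14). Atf3 missed it also without sample weights and with only the 2 groups in the fit.

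Matrix and proliferation genes were higher in nearly every member. Of 22 stellate cell and matrix genes, 19 were higher and none lower (median 0.91), beside 20.2% and 20.1% of all genes. In the EV samples 3 were higher (median 0.38), beside 10.1%, and NAMPT against EV called 12 higher, beside 7.67%. Col1a1, the main chain of fibrillar collagen, read 3.76, 4.72 and 3.94 CPM on chow and from 2.59 to 121 with a median of 46 in the NAMPT samples (log2 fold change 3.35 ± 0.72, adjusted p = 0.00099). NAMPT replicate 6, at 2.59 CPM, was below all chow samples, and the other 5 were above all of them. Col3a1 stood at 2.29 ± 0.37 (adjusted p = 7.7e-05), the actin of contractile cells Acta2 at 1.41 ± 0.45 (adjusted p = 0.016) and the protease inhibitor Timp1 at 3.83 ± 1.18 (adjusted p = 0.013), and the calls of Acta2 and Timp1 were lost without chow replicate 1 or 2, without sample weights and with 2 surrogate variables, that of Acta2 also by both edgeR tests. The summed list was 482 to 535 CPM on chow, 467 CPM in NAMPT replicate 6 and 768 to 1355 CPM in the other 5. Of 15 cell cycle genes, 14 were higher and none lower (median 2.18), beside 20.2% and 20.1% of all genes. In the EV samples 1 was called higher, beside 10.1% of all genes, although the median was 1.06. Their summed level with EV was 52.3 to 150 CPM. NAMPT against EV called 5 higher, beside 7.67%. Ccnd1, the cyclin of entry into the cycle, read 9.76, 7.17 and 16.1 CPM and then from 11.9 to 115 with a median of 56.5 (log2 fold change 2.65 ± 0.46, adjusted p = 0.00013), and its exons share 818 bases with a gene on the other strand. Top2a, a topoisomerase of dividing cells, stood at 2.74 ± 0.69 (adjusted p = 0.0033). NAMPT replicate 2 held the highest summed cell cycle level, 448 CPM, against 43.4 to 68.3 CPM on chow, and NAMPT replicate 6, at 61.8 CPM, lay inside that range. Without chow replicate 1 the matrix and cell cycle counts were 9 and 3, without chow replicate 2 they were 10 and 1, without NAMPT replicates 2 and 6 they were 19 and 15, and with 2 surrogate variables 0 and 3. Col1a1 missed the call without chow replicate 2 and Top2a without chow replicate 1 or 2, whereas Col3a1, Col1a2 and Ccnd1 did not under any left-out library, but with 2 surrogate variables none of the 5 was called.

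**Figure D5:**
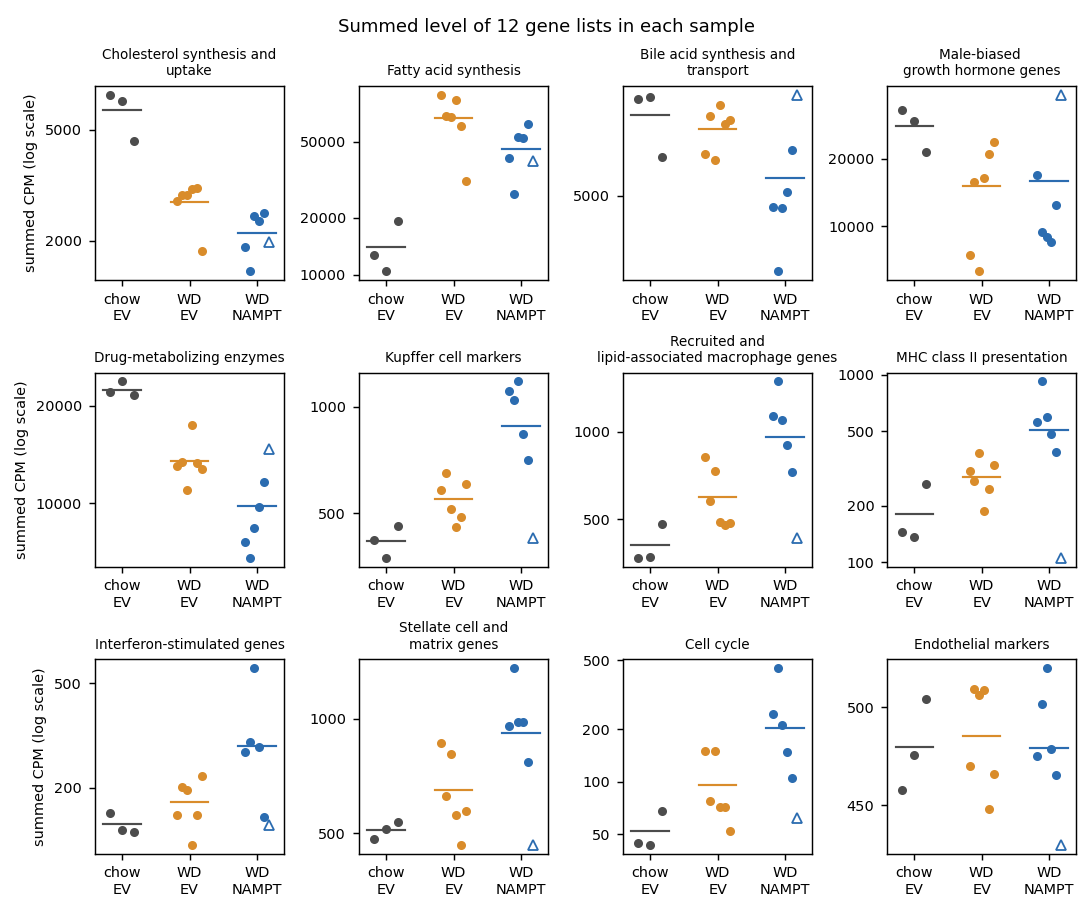
Summed CPM of the kept members of 12 gene lists (vertical axes, log scale) in each chow, EV and NAMPT sample, with a line at the group mean and an open triangle for NAMPT replicate 6. The triangle lies with the other NAMPT samples for cholesterol synthesis (1976 CPM) and with or below the chow samples for macrophage, MHC class II and matrix genes.

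Markers of the other cell types a liver sample can hold were less uniform. Of 7 neutrophil markers kept out of 12, 5 were higher (median 1.85), beside 20.2% of all genes, and none with EV. Their summed level was 3.12 to 6.75 CPM on chow and 3.66 to 27.3 CPM in the NAMPT samples. Of 9 T and NK cell markers kept out of 14, 5 were higher and Cd4 was lower, at summed levels of 6.59 to 7.73 CPM and 5.76 to 12.6 CPM. With EV 1 of these 9 was higher, beside 10.1% of all genes. NAMPT against EV called 2 neutrophil markers higher and no T and NK cell marker. No member was called among 5 B cell markers and 6 cholangiocyte markers. Of 10 endothelial markers, 3 were higher, led by Lyve1 at 1.65 ± 0.29 (adjusted p = 0.00018), and 3 lower, beside 20.2% and 20.1% of all genes, and their summed levels overlapped, at 458 to 505 CPM and 431 to 521 CPM. Of 12 hepatocyte markers none was higher and 4 were lower, beside 20.2% and 20.1% of all genes. In the EV samples 1 was higher and 4 were lower, beside 10.1% and 12.0%. Alb, the albumin gene, stood at -0.31 ± 0.15 and did not pass (adjusted p = 0.11), but it was called without NAMPT replicate 4. Cps1 of the urea cycle fell by 1.14 (SE 0.26, adjusted p = 0.0014). With 2 surrogate variables Cps1 and Lyve1 were not called (-0.51 and 0.92, adjusted p = 0.18 and 0.093), and no hepatocyte marker was lower. The summed hepatocyte markers stood at 83672 to 96092 CPM on chow and at 60828 to 81240.5 CPM in the NAMPT samples. Without chow replicate 2 no neutrophil or T and NK cell marker was called, without chow replicate 1 there were 1 and 0, and without NAMPT replicate 3 only 1 T and NK cell marker was higher. By edgeR's quasi-likelihood test and without sample weights, 1 neutrophil marker was higher and no T and NK cell marker was called. With 2 surrogate variables neither list had a call. Without chow replicate 1 or 2 there were 1 endothelial marker called in each direction and 2 lower hepatocyte markers. The part of cell composition in the other lists was not tested.

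The EV samples show where the NAMPT values lie relative to WD with an empty vector. Against the same chow samples, 3101 genes (22%) were called with EV. Of these, 2313, or 74.6%, were also called in the same direction with NAMPT, which is 40.8% of the NAMPT calls, and none was called in opposite directions. The shared chow libraries enter both comparisons, so the count is no independent measure. Without chow replicate 1 the EV calls numbered 952 and the shared ones 654, and without chow replicate 2 they numbered 843 and 554. NAMPT against EV called 1890 genes (13.4%), 1079 higher and 811 lower, and 2096 of the 2313 shared genes were not called in it. Scaling to library size alone moved the median of all genes in NAMPT against EV by 0.16, and 88.1% of the genes it called were then higher, against 57.1%. The count was 132 without NAMPT replicate 3, 291 without EV replicate 2, 624 without EV replicate 6, 731 without NAMPT replicate 2, 1246 without NAMPT replicate 1 and 2846 without NAMPT replicate 6. The 3 counts that follow rest on it.

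Some genes called with EV were closer to chow with NAMPT. Called with EV against chow, called back toward chow between the vectors, and not called against chow with NAMPT were 203 genes, 6.55% of the EV calls, of which 145 were higher and 58 lower with EV. A further 25 genes were called toward chow between the vectors and also called against chow with NAMPT, a count that was 0 without NAMPT replicate 3, 2 without EV replicate 2, 54 without EV replicate 8 and 63 with the replicate block. Fitm1, which helps to package fat into droplets, read 13.5, 19.6 and 9.94 CPM on chow, averaged 64 CPM with EV and ranged from 8.06 to 57.9 with a median of 25.1 with NAMPT. Its log2 fold change against chow was 1.93 with EV and 0.70 ± 0.36 with NAMPT (adjusted p = 0.12), and it was called above chow with 2 surrogate variables (1.35, adjusted p = 0.034) and without NAMPT replicate 1 (0.91, adjusted p = 0.036). Cyp46a1, a cholesterol 24-hydroxylase, gave 1.84 with EV and -0.34 ± 0.53 with NAMPT, at group means under 5 CPM. Lrtm1 gave 1.88 with EV and 0.31 ± 0.54 with NAMPT, but 1.93 with 2 surrogate variables (adjusted p = 0.0033). The semaphorin gene Sema5b gave 3.33 with EV and 1.57 ± 0.77 with NAMPT (adjusted p = 0.1), with 5 of 6 NAMPT samples above every chow sample, and it was called above chow by both edgeR tests, by DESeq2 and with 2 surrogate variables. Among genes lower with EV, the salt-inducible kinase gene Sik1 gave -1.39 and -0.52 ± 0.27, the chemokine gene Ccl9 gave -1.07 and -0.29 ± 0.25, and Hunk and Dtx3 were the others named by the rule. With 2 surrogate variables Hunk and Ccl9 were called below chow with NAMPT (-1.29 and -1.05, adjusted p = 0.0063 and 0.0045). The count of 203 was 24 without NAMPT replicate 3, 35 without EV replicate 2, 69 without EV replicate 6, 93 without chow replicate 2, 95 without chow replicate 1, 91 without NAMPT replicate 2 and 129 without NAMPT replicate 1. It was 7 with 2 surrogate variables, 16 without sample weights and 35 by edgeR's quasi-likelihood test.

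Another set of genes lay farther from chow with NAMPT than with EV. It held 1306 genes called against chow and called in the same direction between the vectors, 872 higher and 434 lower. The same NAMPT libraries enter both comparisons that define it, with the same sign, which favours joint calls. The 203 genes above share the EV libraries in that way and must also be uncalled against chow. Neither count is an independent measure, and they cannot be ranked against each other. As log2 fold changes against chow and then NAMPT against EV, the adhesion receptor gene Adgrv1 stood at 4.10 ± 0.65 and 0.84, the keratinocyte signalling gene Fam83a at 4.85 ± 1.37 and 2.60, and Itgax at 3.68 ± 0.93 and 2.11. Lower were Srgap3 at -3.79 ± 0.28 and -1.05, Arntl, Npas2 and Cyp2c54. Fam83a and Itgax missed the call against chow without chow replicate 1 or 2, without sample weights or with 2 surrogate variables, whereas Adgrv1 and Srgap3 kept it. The count of 1306 was 96 without NAMPT replicate 3, 228 without EV replicate 2, 481 without EV replicate 6, 484 without chow replicate 2, 519 without NAMPT replicate 2, 622 without chow replicate 1 and 2041 without NAMPT replicate 6. It was 27 with 2 surrogate variables, 107 without sample weights and 265 by edgeR's quasi-likelihood test.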

How the data were processed

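Liver poly-A RNA of 25 mice was sequenced, 1 library a mouse. Per the labels and methods, the authors aligned reads to GRCm38 with STAR (2.5.1a in the submitters' processing notes) and counted them per gene with featureCounts (1.4.6-p5 in the same notes). Strand use in counting was not given in the sources used here. The deposited count column, raw reads per gene for 41388 Ensembl identifiers, was used. The deposited CPM and RPKM columns, which the authors made from those counts, were recomputed within a relative 5.9e-14 and otherwise left aside. Symbols came from GENCODE on GRCm38 for 40254 identifiers, and older list symbols were matched through RefSeq.

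Ribosomal RNA genes (4) were removed, and genes above 1 CPM in 2 or more libraries were kept. TMM scaling (edgeR 4.0.16) was followed by limma 3.58.1 (voom with sample weights) over all 5 groups, with Benjamini-Hochberg adjustment over the 14065 genes kept, and a gene was called at an adjusted p of 0.05 or less. Adjusted p-values in the text come from this fit unless another tool is named. Nampt, Sirt1 and Fgf21 were also compared by 2-sided exact permutation tests of log2(CPM + 0.5). Alternatives included edgeR's tests, DESeq2 1.42.0, other scalings and filters, surrogate variables (sva 3.50.0), a replicate block and each library left out. The scripts were tested on simulated data.

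The comparison, its gene lists and its tests were chosen with earlier results of these data known. Named genes were Nampt, Sirt1 and Fgf21; the 8 rises and 8 falls of greatest size whose groups did not overlap, among calls averaging 1 or more on the log2 CPM scale, gene models aside; up to 3 called genes with the largest change in each of 27 lists; and 4 each way of the genes called with EV but not with NAMPT, or farther from chow with NAMPT. Some members of these lists are not reported here. Other list members named in the text were picked after their values were seen. Libraries of a group differed by far more than sampling noise (chi-square per degree of freedom of at least 15.1). Deviations of same-numbered chow and NAMPT libraries from their group means had correlations from -0.282 to 0.262. There are only 3 such pairs, and deviations cancel within a group, so this can neither show nor exclude a pairing. The labels give no meaning to the numbers, and they were not used as pairs in the main fit. The labels name no litter or cage, so p-values measure only the spread between these mice.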

Additional observations from a re-analysis of the deposited data

Results flagged for a closer look

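Over the 94 named genes, 8 showed 1 NAMPT sample far from the other 5 on the log2 scale, by a gap over range above Dixon's 95% critical value for 6 samples, which chance passes in about 1 in 20 groups. NAMPT replicate 6 was the low sample in 6 of them and NAMPT replicate 2 in the other 2. In replicate 6 these were Ifi27l2b at 4.15 CPM against a median of 28.6 CPM in the other 5, Saa2 at 7.0 CPM against a median of 173 CPM in the other 5, H2-Ab1 at 18.8 CPM against a median of 95.4 CPM in the other 5. They were also Col1a1 at 2.59 CPM against a median of 52.9 CPM in the other 5, Pecam1 at 17.8 CPM against a median of 27.5 CPM in the other 5 and Fam83a at 0.754 CPM against a median of 10.1 CPM in the other 5. In replicate 2 they were Msmo1 at 13.4 CPM against a median of 29.1 CPM in the other 5 and Kynu at 86.5 CPM against a median of 135 CPM in the other 5. Groups of 3 chow samples were not examined in this way. The part of the weights, depth or tissue sampled in these values was not tested.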

How the results depend on the processing

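Of 2161 values of the 94 named genes under the alternatives, 1867 kept direction and side of the threshold, 258 lost the call, 8 gained one and 28 turned. Of the last, the most came from 2 surrogate variables: Slco1a1 0.96, Mup7 1.54, Mup12 1.21, Mup11 1.22, Marco -0.11, S100a8 -0.29, S100a9 -0.60, Cd3e -0.22, H2-Ab1 -0.024, Cyp46a1 0.25 and Hunk -1.29. With the clock score as covariate, chosen after seeing the data, Nampt read -0.012, Npas2 0.17, Ccl9 0.64 and Dtx3 0.18. The uncalled Cyp46a1 read 0.083, 0.105 and 0.10 by edgeR quasi-likelihood, the edgeR exact test and DESeq2, and ran from -0.652 to 0.134 with 1 library left out. Hunk read -0.020, -0.018 and -0.021 in the same 3 and -0.008 without sample weights, and ran from -0.099 to 0.324. Dtx3 ran from -0.173 to 0.093. The signs turned without chow replicate 1 for all 3 genes and also without chow replicate 2 for Dtx3. The cause was not tested.

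NAMPT against chow called 2989 genes by edgeR quasi-likelihood, 2174 by the edgeR exact test, 3467 by DESeq2, 2594 without sample weights, 1863 with 2 surrogate variables and 3727 with the clock score, and 1655 to 5974 with 1 library left out. Its large changes numbered 948 without sample weights, 528 with surrogate variables and 675 to 1919 with 1 library left out. EV against chow called, in the same order, 1322, 1691, 1745 and 1201, then 1970 without a filter on low counts, and 843 to 3171 with 1 library left out. NAMPT against EV called 428, 328, 1194 and 192, then 524 without a filter, 653 with only its 2 groups, 52 with surrogate variables and 132 to 2846 with 1 library left out.

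With the replicate block, NAMPT against chow called 4716 genes, with 1691 large changes, EV against chow 3842 and NAMPT against EV 884, and Cyp46a1 turned to 0.071 and Ccl9 to 0.005. Since the labels tie same-numbered samples by nothing but the number, this is no paired test. Within replicates 1 to 3 the block gave 0.59 for Nampt, -0.26 for Sirt1 and 4.55 for Fgf21, each with an exact permutation p of 0.25, the smallest 3 pairs allow. With 1 library left out, the 3 exact values ran from 0.44 to 0.61, from -0.26 to -0.19 and from 3.29 to 4.06, and all 3 missed the threshold without chow replicate 1 or 2. Sirt1 read -0.12 with scaling to library size (adjusted p = 0.321).

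Only 3 chow samples set the base, and with a pair of them the spread rests largely on the other groups. Genes near 1 CPM, such as S100a8 and Cd3e, rest on few reads.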
